A study of Homo sapiens with 21 samples.

Results

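Ribosome biogenesis and MYC target genes were followed as a module in RNA sequencing of NLF, a human neuroblastoma cell line, and of lines made from it. The module was given as 43 gene symbols, listed by name, and 42 of them had a row in the calibrated expression table of 57820 genes. BOP1 had no row under that symbol and is not analysed here. All 42 genes passed the filter on low values, an FPKM (fragments per kilobase of transcript, scaled to the mapped fragments) of at least 1 in at least 3 libraries, which kept 16092 genes. The 21 libraries form 7 groups of 3. YAPKO2 and YAPKO1 are lines in which CRISPR-Cas9 was used to knock out YAP1, the coactivator that the Hippo pathway restrains, and sgCON carries Cas9 with a scrambled guide. Each of these lines was sampled after 72 h with 20 nM trametinib, an inhibitor of the MEK kinases, or with its solvent DMSO. Parental NLF cells, which carry no guide, are labelled with DMSO and without trametinib. The series asks about YAP in cells that resist trametinib. Whether each knockout line is a clone or a pool is not stated in the labels. The labels do not say whether the 3 libraries of a group came from different cultures. The p-values below therefore rest on the spread between libraries that may differ only technically.

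Ribosomes are assembled in the nucleolus, where RNA polymerase I copies the ribosomal RNA genes, small nucleolar RNPs modify and help cleave the precursor, and assembly factors mature the small and the large subunit. The factors of this pathway are classical targets of the MYC family, which binds the E-box CACGTG with its partner MAX, and NLF is a MYCN-amplified line. Ornithine decarboxylase (ODC1) and CAD, enzymes of polyamine and pyrimidine synthesis, are textbook MYC targets of another kind.

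The promoters are shown first because the module is named for MYC, and the motif is what many of its members share. RefSeq promoter windows (GRCh38.p14, 250 bases before to 50 after the gene start) were found for 37 of the 43 symbols and not for RRP12, RRS1, NOLC1, NOP58, BOP1 and POLR3G. The motif CACGTG, which reads the same on both strands, was present in at least 1 window of 17 of the 37 genes (45.9%). It was present in 7.26% of all 35116 windows, and in 12.8% of the 9617 tested protein-coding genes that had a window. The motif was searched alone, so a match is a description of these letters and not a binding site. Only windows that hold the motif are shown. Those of NCL, NOP56, DKC1 and HEATR1, which also fell with trametinib in YAPKO2, did not hold it. The windows below, 5′ to 3′ on the gene's strand with CACGTG in capitals, belong to PNO1 and EBNA1BP2, the members called in all 3 trametinib comparisons, to LYAR and DDX21, the largest falls in YAPKO2, and to ODC1, the polyamine gene. PNO1 lies at chr2:68157638-68157937 on the plus strand, with the motif starting 10 bases after the start. EBNA1BP2 lies at chr1:43172521-43172820 on the minus strand, with the motif 237 bases before it. LYAR lies at chr4:4289972-4290271 on the minus strand, with the motif 64 bases before it. DDX21 lies at chr10:68956397-68956696 on the plus strand, with the motif 31 bases before it. ODC1 lies at chr2:10447963-10448262 on the minus strand and holds the motif at 29 bases before and 6 bases after the start.
PNO1: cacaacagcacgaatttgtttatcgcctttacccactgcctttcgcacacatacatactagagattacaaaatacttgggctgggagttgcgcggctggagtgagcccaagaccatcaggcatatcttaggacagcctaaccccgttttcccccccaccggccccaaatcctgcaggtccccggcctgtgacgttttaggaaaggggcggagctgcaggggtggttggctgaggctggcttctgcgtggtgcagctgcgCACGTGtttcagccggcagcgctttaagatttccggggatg
EBNA1BP2: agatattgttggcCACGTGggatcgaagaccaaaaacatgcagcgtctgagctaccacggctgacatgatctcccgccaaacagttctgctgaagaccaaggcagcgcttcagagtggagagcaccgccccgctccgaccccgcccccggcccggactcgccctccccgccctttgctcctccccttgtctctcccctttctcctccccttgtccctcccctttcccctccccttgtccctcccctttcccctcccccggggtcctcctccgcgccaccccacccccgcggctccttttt
LYAR: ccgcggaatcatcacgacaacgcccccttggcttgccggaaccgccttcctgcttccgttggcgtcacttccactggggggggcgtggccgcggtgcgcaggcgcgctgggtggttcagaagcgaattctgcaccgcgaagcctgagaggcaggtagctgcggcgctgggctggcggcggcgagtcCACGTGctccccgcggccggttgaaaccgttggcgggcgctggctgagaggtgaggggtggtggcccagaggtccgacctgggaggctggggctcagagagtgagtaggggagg
DDX21: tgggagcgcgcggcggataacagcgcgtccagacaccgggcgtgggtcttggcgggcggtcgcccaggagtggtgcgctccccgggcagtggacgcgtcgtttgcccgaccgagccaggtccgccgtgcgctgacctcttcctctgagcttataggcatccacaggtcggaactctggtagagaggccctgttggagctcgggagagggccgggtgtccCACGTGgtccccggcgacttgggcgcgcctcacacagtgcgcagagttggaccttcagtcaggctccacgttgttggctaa
ODC1: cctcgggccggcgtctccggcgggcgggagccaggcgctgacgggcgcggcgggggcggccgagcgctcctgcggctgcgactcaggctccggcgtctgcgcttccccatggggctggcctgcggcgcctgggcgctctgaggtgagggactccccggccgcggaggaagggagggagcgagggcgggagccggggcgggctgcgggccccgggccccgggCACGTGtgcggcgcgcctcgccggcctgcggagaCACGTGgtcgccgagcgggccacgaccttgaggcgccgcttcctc

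Among members with the motif, 8 of 17 fell with trametinib in YAPKO2, against 10 of 20 members whose windows did not hold it. The median log2 changes of these sets were -0.44 with the motif and -0.35 without it. In YAPKO1, 2 members with the motif and 1 without it fell, with medians of -0.27 and -0.21, and in sgCON 2 and 0 fell, with medians of -0.18 and -0.10. Against sgCON in DMSO, the median of the members with the motif was -0.24 in YAPKO2 and -0.19 in YAPKO1, and that of the members without it was 0.03 and 0.08. For the trametinib response of YAPKO2 minus that of sgCON, 0 of 17 members with the motif and 2 of 20 without it were called lower, with medians of -0.24 and -0.21. The differences between these sets were not tested.

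YAP1 itself was lower in both knockout lines and was not absent. It had 2.73, 1.16 and 3.69 FPKM in YAPKO2 with trametinib and 3.17, 2.69 and 2.81 in YAPKO2 with DMSO. It had 12.5, 11.9 and 10.1 FPKM in YAPKO1 with trametinib, 13.2, 12.9 and 9.06 in YAPKO1 with DMSO, 22.7 to 24.5 in sgCON with trametinib, 24.2 to 27.7 in sgCON with DMSO and 29.4 to 33.4 in parental cells. Of 10 markers of noradrenergic neuroblastoma, 9 reached an FPKM of 1 in some library. TH, which makes catecholamines, was at or near 0 throughout (highest 0.511 FPKM). MYCN is among the 10 markers, so its own changes, given below, enter their sum, and a sum without MYCN was not made. The summed FPKM of the 10 markers was 532 to 721 in YAPKO2 with trametinib and 498 to 551 in YAPKO2 with DMSO. It was 483 to 557 in YAPKO1 with trametinib and 460.4 to 606 in YAPKO1 with DMSO, against 341 to 367 in sgCON with trametinib, 331 to 349 in sgCON with DMSO and 273 to 292 in parental cells. All 7 fibroblast markers reached an FPKM of 1 as well, and their summed FPKM was 213 to 351 in YAPKO2 with trametinib and 399 to 628 in YAPKO2 with DMSO. It was 190.3 to 270.2 in YAPKO1 with trametinib and 230.4 to 499 in YAPKO1 with DMSO, against 477 to 603 in sgCON with trametinib, 457 to 537 in sgCON with DMSO and 885 to 951 in parental cells. In bulk RNA, fewer cells of a type and less RNA per cell cannot be told apart, and the part of either marker list in the results below was not tested. Endothelial and epithelial markers stayed below 1 FPKM summed in every library, and blood markers at or below 1.38. Libraries also differed in how expression depended on transcript GC content. The GC trend, the median log2 deviation of the GC-richest quartile of genes minus that of the GC-poorest, was 0.72, 1.36 and -0.26 in libraries 1 to 3 of YAPKO2 with trametinib and -0.42, -0.22 and 0.69 in those of YAPKO1 with DMSO. Library 2 of YAPKO2 with trametinib and library 3 of YAPKO1 with DMSO, the most positive of their groups, were left out together as an alternative, called here the 2 libraries of high GC trend. Library 3 of YAPKO2 with trametinib lay further from its group's median and was left out alone: 21 members were then called with trametinib in YAPKO2, and 27 for YAPKO2 against sgCON with trametinib. Total counts of members per comparison are also given without the 2 libraries of high GC trend and after a correction for GC content where that moves them by over 1.5 times.

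The module was highly expressed. The mean over all libraries ran from 7.88 FPKM for POLR3G, a subunit of RNA polymerase III, to 2141 FPKM for NPM1 (nucleophosmin), a nucleolar chaperone, with a median of 49.5 FPKM over the 42 genes. The median member lay above 84.0% of the tested protein-coding genes, 11 members exceeded 100 FPKM, and 6 stayed below 20 FPKM. Group means of 23 members were lowest in YAPKO2 with trametinib out of the 7 groups, which the heat map of all members shows. The share of all tested genes with their lowest mean there was not counted. In 11 members (BYSL, CAD, NIP7, NOP10, NPM1, PES1, POLR1A, PPAN, RRP12, RRP9 and UBTF) no comparison passed the test.

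**Figure D1:**
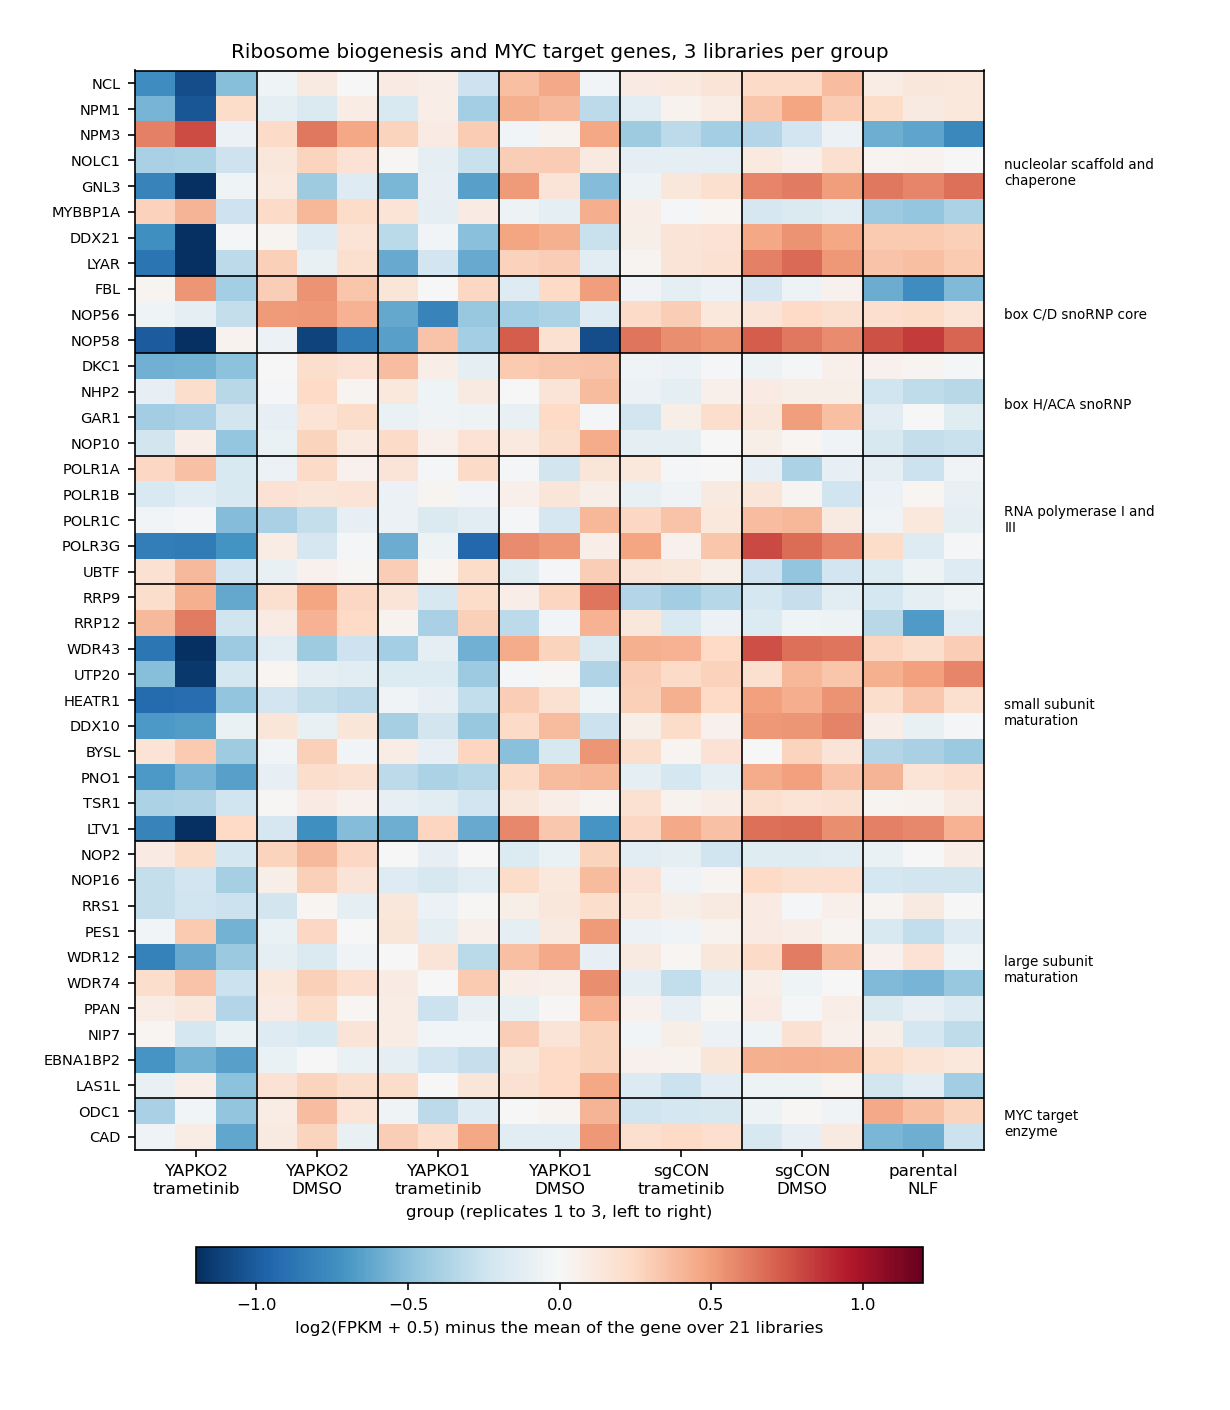
Heat map of the 42 genes (rows, grouped by role) in the 21 libraries (columns, 3 per group). Colour gives log2(FPKM + 0.5) minus the mean of that gene over all libraries. YAPKO2 with trametinib, at the left, holds most of the darkest blue cells, with library 2 the darkest. There 23 of the 42 genes have their lowest group mean, a count not made for all tested genes.

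With trametinib, members of the module were lower far more often than higher, in few called genes of sgCON and in many of YAPKO2. Of the 42 members, 20 fell and 0 rose in YAPKO2 (47.6% lower), beside 11.5% lower, 8.59% higher and 20.1% called in either direction among all tested genes. In YAPKO1, 5 fell and 0 rose (11.9%), beside 3.88% lower, 3.97% higher and 7.85% called among all genes. In sgCON, 2 fell and 0 rose (4.76%), beside 2.94% lower, 2.28% higher and 5.22% called among all genes. The share of members called in sgCON was thus near that of all genes. Here and below a call is an adjusted p under 0.05 (limma, Benjamini-Hochberg over all tested genes), values are FPKM scaled between libraries, and a log2 change is given with its SE. The median log2 change of the members was -0.36 in YAPKO2, -0.21 in YAPKO1 and -0.14 in sgCON, where the median of all tested genes was -0.01, -0.01 and 0.00. Negative changes were measured for 38, 37 and 33 of the 42 members in these lines, and for 51%, 51.4% and 50.7% of all genes. These comparisons share no library. Without the 2 libraries of high GC trend the counts of members lower were 20 in YAPKO2, 15 in YAPKO1 and 4 in sgCON, where 1 (UBTF) was then higher; after the GC correction they were 30, 15 and 6, again with UBTF higher in sgCON. UBTF was also called higher in sgCON with quantile normalization and in both tables as deposited. The count in YAPKO1 was 11 without library 3 of YAPKO1 with DMSO, and that in YAPKO2 was 13 without library 3 of YAPKO2 with DMSO. Fitted on the 2 groups of each comparison alone, with no spread taken from the other groups, 5 members were called in YAPKO2, 1 in YAPKO1 and 12 in sgCON. Of the 20 calls in YAPKO2, 5 were kept under every setting tried (NOLC1, NOP56, DKC1, PNO1 and EBNA1BP2). In YAPKO1 1 of 5 was kept (PNO1), and in sgCON 1 of 2 (EBNA1BP2). Shares of all genes called under these alternatives are not given here, so a moved count of members is not by itself a trait of the module.

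**Figure D2:**
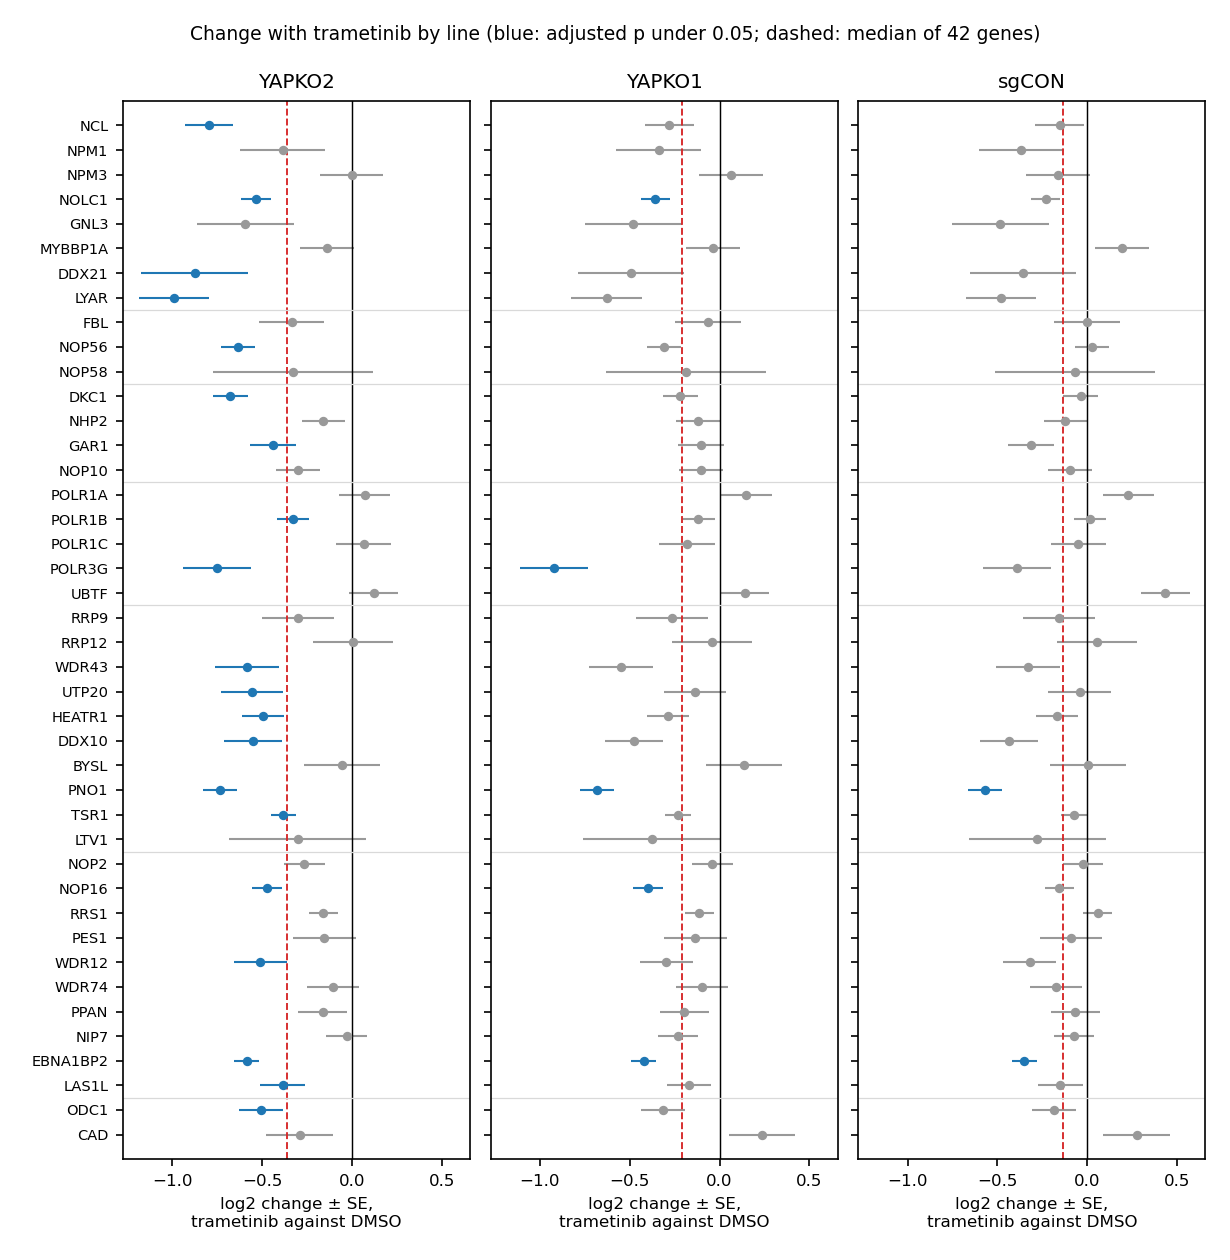
Change with trametinib of each of the 42 genes in YAPKO2, YAPKO1 and sgCON (log2 change ± SE from limma, 3 libraries a group). Blue points passed an adjusted p of 0.05 (20, 5 and 2 genes), and the dashed line is the median of the 42 genes (-0.36, -0.21 and -0.14).

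PNO1 and EBNA1BP2 fell in all 3 lines. PNO1 is the partner of the nuclease NOB1 in the last steps of small subunit maturation. It had 20.8, 22.95 and 21.4 FPKM with trametinib and 31.6, 39.5 and 38.7 with DMSO in YAPKO2. In YAPKO1, PNO1 had 27.2, 25.98 and 26.7 FPKM with trametinib and 39.8, 44.4 and 45.1 with DMSO. In sgCON, PNO1 had 31.3, 29.2 and 31.6 FPKM with trametinib and 46.5, 47.9 and 43.1 with DMSO. In each line every trametinib library lay below every DMSO library, and the libraries of a group were close to each other. The log2 changes were -0.73 ± 0.10 in YAPKO2 (adjusted p = 3.31e-05), -0.68 ± 0.10 in YAPKO1 (adjusted p = 0.000177) and -0.57 ± 0.10 in sgCON (adjusted p = 0.00133).

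EBNA1BP2, the human EBP2 of large subunit assembly, had 95.9, 106 and 99.7 FPKM with trametinib and 148, 157 and 148 with DMSO in YAPKO2. In YAPKO1, EBNA1BP2 had 145, 134 and 129 FPKM with trametinib and 173, 185 and 189 with DMSO. In sgCON, EBNA1BP2 had 162, 161 and 174 FPKM with trametinib and 211, 212 and 211 with DMSO. Again the groups of each line did not overlap, and the sgCON libraries with DMSO were the highest of all. The log2 changes were -0.59 ± 0.07, -0.42 ± 0.07 and -0.35 ± 0.07 in YAPKO2, YAPKO1 and sgCON, with adjusted p of 1.45e-05, 0.000927 and 0.0057. Parental cells had 183, 176 and 171 FPKM, all below the sgCON libraries with DMSO.

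Among the 8 nucleolar scaffold and chaperone genes, 4 fell in YAPKO2 (NCL, NOLC1, DDX21 and LYAR), 1 in YAPKO1 (NOLC1) and 0 in sgCON, where 2 had an unadjusted p under 0.05 (limma). NCL, nucleolin, one of the main proteins of the nucleolus, had 327, 263 and 386 FPKM with trametinib and 531, 593 and 551 with DMSO in YAPKO2. In YAPKO1, NCL had 589, 582 and 464 FPKM with trametinib and 704, 753 and 536 with DMSO, and in sgCON 588, 598 and 612 with trametinib and 646, 646 and 711 with DMSO. The YAPKO2 libraries with trametinib were lower than all others in the series, while the groups overlapped in YAPKO1. NCL changed by -0.79 ± 0.14 on the log2 scale in YAPKO2 (adjusted p = 0.000437), by -0.28 ± 0.14 in YAPKO1 (adjusted p = 0.244) and by -0.15 ± 0.14 in sgCON (adjusted p = 0.631), and it passed the test in YAPKO2. There the adjusted p was 0.0611 with quantile normalization and 0.0555 when the 2 groups were fitted alone.

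LYAR, a nucleolar zinc finger protein of pre-ribosomal RNA processing, had the largest fall of the module in YAPKO2. It had 9.47, 6.47 and 14.2 FPKM with trametinib and 21.8, 16.7 and 20.4 with DMSO in YAPKO2, a log2 change of -0.99 ± 0.20 (adjusted p = 0.00164). In YAPKO1, LYAR had 11.5, 15.1 and 11.5 FPKM with trametinib and 21.7, 21.95 and 16.2 with DMSO, and in sgCON 18.2, 19.8 and 20.3 with trametinib and 27.3, 28.8 and 25.8 with DMSO. No trametinib library reached a DMSO library of its own line, although the change passed the test in YAPKO2 and not in YAPKO1 (adjusted p = 0.0588) or sgCON (adjusted p = 0.197). DDX21, a helicase that couples RNA polymerase I to processing, had 49.5, 22.9 and 81.7 FPKM with trametinib and 84.7, 74.2 and 92.9 with DMSO in YAPKO2. Its trametinib libraries were far apart and 1 of them lay above a DMSO library; the call (-0.88 ± 0.30, adjusted p = 0.045) was lost in 5 of the 6 fits that left out 1 library, all but that without library 3 of YAPKO2 with trametinib. NOLC1, a chaperone of small nucleolar RNPs, changed by -0.53 ± 0.08 in YAPKO2, -0.36 ± 0.08 in YAPKO1 and -0.23 ± 0.08 in sgCON on the log2 scale, with adjusted p of 0.000187, 0.0124 and 0.13. The call in YAPKO1, where NOLC1 had 65.99, 60.6 and 54.3 FPKM with trametinib and 80.5, 80.8 and 70.5 with DMSO, was lost without library 1 or 2 of its DMSO group or library 3 of its trametinib group.

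NPM1 did not pass the test in any line. It had 1411, 1026 and 2424 FPKM with trametinib and 1915, 1843 and 2215 with DMSO in YAPKO2. In YAPKO1, NPM1 had 1834, 2195 and 1573 FPKM with trametinib and 2808, 2719.8 and 1677 with DMSO, and in sgCON 1914, 2142 and 2220.5 with trametinib and 2630.1, 2895 and 2571 with DMSO. The libraries of both knockout lines were widely spread and overlapped between treatments, and those of sgCON did not overlap. The log2 changes were -0.39 ± 0.24, -0.34 ± 0.24 and -0.37 ± 0.24 in YAPKO2, YAPKO1 and sgCON. NPM1 has 45 pseudogene rows in the table with a summed mean of 56.3 FPKM, so a small part of its reads may have been counted elsewhere. The other 3 genes of the group, NPM3, GNL3 (nucleostemin) and MYBBP1A, changed by 0.00, -0.59 and -0.14 in YAPKO2 without passing the test.

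Of the 3 members that are core proteins of the box C/D particles 1 fell in YAPKO2, and of the 4 proteins of the box H/ACA particles 2 fell. None of these 7 were called in YAPKO1 or sgCON, where limma gave an unadjusted p under 0.05 for 2 and 1 of them. NOP56, a core protein of the box C/D particles that guide methylation, had 174, 166 and 148 FPKM with trametinib and 257, 259 and 242 with DMSO in YAPKO2. In YAPKO1, NOP56 had 117, 104 and 132 FPKM with trametinib and 136, 138 and 162 with DMSO, and in sgCON 212, 221 and 197 with trametinib and 201, 213 and 206 with DMSO. The YAPKO2 groups were far apart, the YAPKO1 groups close and without overlap, and the sgCON groups overlapped. The log2 changes were -0.64 ± 0.09 (adjusted p = 0.000123), -0.31 ± 0.09 (adjusted p = 0.054) and 0.02 ± 0.09 (adjusted p = 0.936) in these lines.

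FBL, fibrillarin, the methyltransferase of the same particles, had 279.9, 395 and 205 FPKM with trametinib and 334, 398 and 343 with DMSO in YAPKO2. In YAPKO1, FBL had 301, 272 and 325 FPKM with trametinib and 245, 323 and 385 with DMSO, and in sgCON 266, 252 and 261 with trametinib and 238, 262 and 282 with DMSO. Treatments overlapped in each line, and no change passed the test (-0.34, -0.07 and 0.00 on the log2 scale). NOP58, the partner of NOP56, changed by -0.33 ± 0.45 in YAPKO2 with a spread too wide to be called.

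DKC1, dyskerin, the pseudouridine synthase of the box H/ACA particles, had 47.3, 47.6 and 50.2 FPKM with trametinib and 71.1, 82.2 and 79.8 with DMSO in YAPKO2. In YAPKO1, DKC1 had 91.7, 75.1 and 65.3 FPKM with trametinib and 88.1, 89.4 and 90.03 with DMSO, and in sgCON 68.9, 67.3 and 70.2 with trametinib and 68.03, 69.9 and 73.9 with DMSO. The 3 YAPKO2 libraries with trametinib were the lowest of the series and lay close together. The log2 change was -0.68 ± 0.10 in YAPKO2 (adjusted p = 8.71e-05), -0.22 ± 0.10 in YAPKO1 (adjusted p = 0.2) and -0.04 ± 0.10 in sgCON (adjusted p = 0.899). GAR1, another protein of these particles, fell by 0.44 on the log2 scale in YAPKO2 (adjusted p = 0.0221), a call lost in 4 of the 6 fits that left out 1 library (libraries 2 and 3 with DMSO, 1 and 2 with trametinib). NHP2 and NOP10 changed there by -0.16 and -0.30 and did not pass. NOP56 and DKC1 host small nucleolar RNA genes, which have rows of their own.

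Of the 5 polymerase genes, 2 fell in YAPKO2 (POLR1B and POLR3G), 1 in YAPKO1 (POLR3G) and 0 in sgCON, where 1 had an unadjusted p under 0.05 (limma). POLR3G, a subunit of RNA polymerase III that is abundant in stem and tumour cells, had 3.95, 3.90 and 4.30 FPKM with trametinib and 7.90, 6.37 and 7.23 with DMSO in YAPKO2. In YAPKO1, POLR3G had 4.72, 7.06 and 3.60 FPKM with trametinib and 11.2, 10.8 and 7.83 with DMSO, and in sgCON 10.4, 7.69 and 9.45 with trametinib and 13.1, 12.02 and 11.3 with DMSO. Treatments did not overlap in any line, and the level was low throughout. Its log2 changes were -0.75 ± 0.19 in YAPKO2 (adjusted p = 0.00906), -0.92 ± 0.19 in YAPKO1 (adjusted p = 0.0053) and -0.39 ± 0.19 in sgCON (adjusted p = 0.29), on the log2(FPKM + 0.5) scale, which understates the change of a low gene.

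POLR1B, the second largest subunit of RNA polymerase I, had 37.9, 39.2 and 38.01 FPKM with trametinib and 48.6, 47.6 and 48.4 with DMSO in YAPKO2, a log2 change of -0.33 ± 0.09 (adjusted p = 0.0155). In YAPKO1, POLR1B had 40.9, 44.1 and 42.2 FPKM with trametinib and 45.04, 47.6 and 45.4 with DMSO, and in sgCON 40.6, 41.98 and 46.6 with trametinib and 47.9, 44.1 and 36.5 with DMSO. The groups of YAPKO2 and of YAPKO1 did not overlap, and those of sgCON did. In YAPKO2 its adjusted p was 0.0755 in the calibrated and 0.0648 in the uncalibrated table without further scaling. POLR1A, the largest subunit, and UBTF, the factor that opens ribosomal DNA for the polymerase, were the members with a positive change in all 3 lines: 0.07, 0.15 and 0.23 for POLR1A, and 0.12, 0.14 and 0.43 for UBTF on the log2 scale in YAPKO2, YAPKO1 and sgCON. None of these passed the main test. POLR1C changed by 0.07 in YAPKO2; it shares exon bases with genes on the opposite strand, and whether the counting used strand is not given in the sources used here.

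Small subunit maturation held 6 falls among 10 genes in YAPKO2 (WDR43, UTP20, HEATR1, DDX10, PNO1 and TSR1), and PNO1 alone in YAPKO1 and in sgCON. HEATR1, a large scaffold of the earliest precursor particle that also acts in polymerase I transcription, had 27.01, 27.2 and 37.1 FPKM with trametinib and 44.2, 42.3 and 41.6 with DMSO in YAPKO2. In YAPKO1, HEATR1 had 50.1, 48.4 and 42.1 FPKM with trametinib and 63.7, 58.7 and 49.8 with DMSO, and in sgCON 63.2, 69.9 and 61.2 with trametinib and 73.04, 70.2 and 75.5 with DMSO. The groups were apart in YAPKO2 and in sgCON and overlapped in YAPKO1. The change was -0.50 ± 0.12 (adjusted p = 0.00607) in YAPKO2, -0.29 ± 0.12 (adjusted p = 0.161) in YAPKO1 and -0.17 ± 0.12 (adjusted p = 0.505) in sgCON. The falls of WDR43, UTP20 and DDX10 in YAPKO2 were -0.59, -0.56 and -0.55, and each of these calls was lost in 4 of the 6 fits that left out 1 library, among them those without library 1 or 3 with DMSO or library 2 with trametinib. TSR1, an assembly GTPase-like factor of the late particle, fell by 0.38 (adjusted p = 0.00102). That call was kept in all 6 of these fits and lost when the 2 groups were fitted alone (adjusted p = 0.0965). RRP9, RRP12, BYSL and LTV1 did not pass in any line, with changes in YAPKO2 of -0.30, 0.01, -0.06 and -0.30.

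Large subunit maturation held 4 falls among 10 genes in YAPKO2 (NOP16, WDR12, EBNA1BP2 and LAS1L), 2 in YAPKO1 (NOP16 and EBNA1BP2) and 1 in sgCON (EBNA1BP2). NOP16, an assembly factor known as a MYC target, had 72.7, 75.7 and 67.3 FPKM with trametinib and 93.4, 108 and 99.03 with DMSO in YAPKO2. In YAPKO1, NOP16 had 79.3, 77.6 and 81.3 FPKM with trametinib and 104, 96.6 and 115 with DMSO, and in sgCON 100.1, 85.999 and 90.7 with trametinib and 105, 101 and 102 with DMSO. No treatment groups overlapped, and the gap in sgCON was the smallest. The log2 changes were -0.47 ± 0.08 (adjusted p = 0.000563), -0.40 ± 0.08 (adjusted p = 0.00585) and -0.16 ± 0.08 (adjusted p = 0.354) in these lines. NOP16 overlaps 2 genes on the opposite strand, of which the higher has 171.8 FPKM on average.

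PES1 and WDR12 belong to the PeBoW complex of large subunit processing, with BOP1 as their partner. PES1 had 98.05, 125 and 67.4 FPKM with trametinib and 94.8, 119 and 101 with DMSO in YAPKO2. In YAPKO1, PES1 had 111, 93.1 and 105 FPKM with trametinib and 93.1, 108 and 143 with DMSO, and in sgCON 95.5, 97.6 and 103 with trametinib and 107, 106 and 102 with DMSO. Treatments overlapped in every line, and the log2 changes of -0.15, -0.13 and -0.09 did not pass. WDR12 fell by 0.51 in YAPKO2 (adjusted p = 0.0206), which the GC correction moved to an adjusted p of 0.0713. That call was also lost in 3 of the 6 fits that left out 1 library, those without library 1 or 3 with DMSO or library 1 with trametinib. LAS1L, the nuclease component of spacer removal, fell by 0.38 there (adjusted p = 0.0362), a call lost without any 1 of libraries 1 to 3 with DMSO or libraries 1 and 3 with trametinib. NOP2, RRS1, WDR74, PPAN and NIP7 changed by -0.03 to -0.26 in YAPKO2 and did not pass in any line. WDR74 shares exon bases with the small nuclear RNA gene RNU2-2P (7813 FPKM on average) and PPAN with a read-through row, so their levels are uncertain.

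ODC1 fell in YAPKO2 and CAD in no line. ODC1 had 203, 259 and 191 FPKM with trametinib and 282, 343 and 297 with DMSO in YAPKO2. In YAPKO1, ODC1 had 257, 214 and 238 FPKM with trametinib and 266, 271 and 352 with DMSO, and in sgCON 225, 229 and 232 with trametinib and 255, 268 and 258 with DMSO. The treatments did not overlap in any of the 3 lines. Its log2 changes were -0.50 ± 0.12 (adjusted p = 0.00733), -0.32 ± 0.12 (adjusted p = 0.136) and -0.18 ± 0.12 (adjusted p = 0.485). CAD had 21.6, 23.8 and 14.3 FPKM with trametinib and 24.2, 27.01 and 21.002 with DMSO in YAPKO2. In YAPKO1, CAD had 27.6, 25.9 and 31.004 FPKM with trametinib and 20.2, 20.4 and 32.3 with DMSO, and in sgCON 25.6, 26.5 and 25.7 with trametinib and 19.5, 20.9 and 24.1 with DMSO. Its sgCON libraries with trametinib all lay above those with DMSO, while the groups overlapped in both knockout lines. The log2 changes of -0.29, 0.24 and 0.27 in YAPKO2, YAPKO1 and sgCON did not pass the test.

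**Figure D3:**
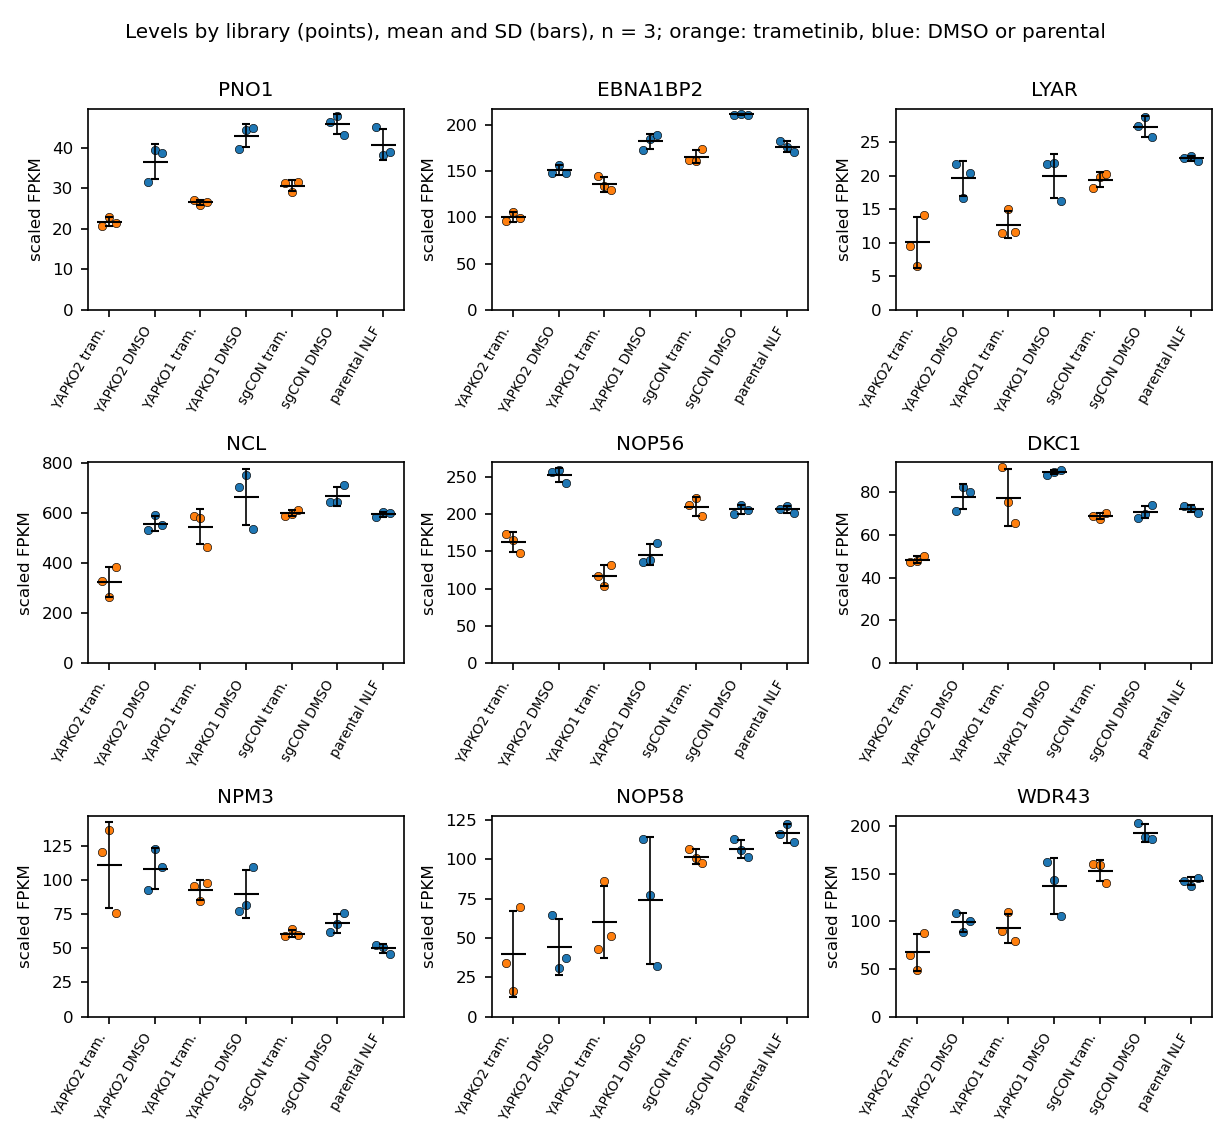
Scaled FPKM of 9 members in every library (points), with the mean and SD of the 3 libraries (bars), by line and treatment. PNO1, EBNA1BP2 and LYAR are lower with trametinib in every line, NCL, NOP56 and DKC1 separate in YAPKO2 with trametinib, and NPM3 is higher and NOP58 and WDR43 are lower in YAPKO2 than in sgCON.

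The size of the trametinib response was then compared between lines, as the difference of the log2 changes. In 34 of the 42 members the change was the most negative in YAPKO2 of the 3 lines. The same count was not made over all tested genes. With trametinib, 20.1% of all genes were called in YAPKO2, 7.85% in YAPKO1 and 5.22% in sgCON. For YAPKO2 minus sgCON, 2 members passed the test, both lower (4.76%), beside 3.03% lower, 1.8% higher and 4.83% called among all genes. These were NOP56, with a difference of -0.66 ± 0.13 on the log2 scale (adjusted p = 0.00737), and DKC1, at -0.64 ± 0.14 (adjusted p = 0.0106), and both calls were kept when any 1 of the 12 libraries was left out and under every other setting tried. The median difference of the members was -0.24, and 38 of 42 differences were negative, against 50.8% of all genes. Without library 3 of YAPKO2 with trametinib 6 members passed, without the 2 libraries of high GC trend 4 did, and after the GC correction 10 did, all lower. For YAPKO1 minus sgCON, 0 members passed in limma (1 had an unadjusted p under 0.05), beside 0.249% of all genes (0.199% higher and 0.0497% lower), and the median difference was -0.11. For YAPKO2 minus YAPKO1, 0 members passed in limma (3 had an unadjusted p under 0.05), beside 0.808% of all genes (0.217% higher and 0.59% lower), with a median of -0.13; 1 passed without library 3 of YAPKO1 with trametinib, and 1 without the 2 libraries of high GC trend. The 3 differences share libraries with each other. Of the 20 members that fell in YAPKO2, 18 did not pass the test of YAPKO2 minus sgCON with all libraries and no GC correction, which does not show that the lines responded alike.

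The knockout lines were next compared with sgCON without drug. In DMSO, YAPKO2 had 4 members higher and 10 lower (33.3% called), beside 27.1% of all genes called, 14.1% higher and 13.1% lower. YAPKO1 had 1 higher and 1 lower (4.76%), beside 12% of all genes, 6.18% higher and 5.81% lower. The share of members called was thus near or below that of all genes in both lines, and the median log2 change of the members was -0.05 in YAPKO2 and 0.04 in YAPKO1. Both comparisons use the same sgCON libraries. The count of 14 in YAPKO2 was 7, 6 and 9 without library 1, 2 or 3 of sgCON with DMSO and 6 without library 2 of YAPKO2 with DMSO, 24 without the 2 libraries of high GC trend, which enter only the shared estimate of the spread here, 25 when the groups were fitted alone, and 16 after the GC correction.

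The members higher in YAPKO2 with DMSO were NPM3, MYBBP1A, NOP2 and NOP56. NPM3, a relative of nucleophosmin, had 92.9, 123 and 109 FPKM in YAPKO2 and 77.3, 81.7 and 109.8 in YAPKO1, against 61.8, 67.6 and 75.7 in sgCON. All libraries of both knockout lines lay above those of sgCON, and the change was 0.66 ± 0.18 in YAPKO2 (adjusted p = 0.0112) and 0.38 ± 0.18 in YAPKO1 (adjusted p = 0.179); the call in YAPKO2 was lost without its library 2. MYBBP1A, a nucleolar repressor that binds MYB, had 30.99, 34.9 and 30.8 FPKM in YAPKO2 and 25.3, 24.2 and 35.8 in YAPKO1, against 22.8, 23.3 and 24.03 in sgCON. NOP2, a methyltransferase of the large subunit RNA, had 46.01, 50.1 and 45.3 FPKM in YAPKO2 and 34.1, 36.1 and 46.1 in YAPKO1, against 34.5, 34.4 and 34.8 in sgCON. YAPKO2 libraries were above sgCON without overlap for both genes, with changes of 0.45 ± 0.15 (adjusted p = 0.036), a call lost whichever library was left out, and 0.44 ± 0.11 (adjusted p = 0.00857), kept in every such fit.

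NOP56 and DKC1 moved differently in the knockout lines. NOP56 had 252 FPKM on average in YAPKO2 with DMSO, against 206 in sgCON (0.29 ± 0.09, adjusted p = 0.0308), and 145 in YAPKO1 with DMSO (-0.51 ± 0.09, adjusted p = 0.00159). The YAPKO1 libraries were all below and the YAPKO2 libraries all above those of sgCON. The call in YAPKO1 held in all 6 fits that left out 1 library, while that in YAPKO2 was lost in 5 of 6, all but that without its library 3, and after the GC correction (adjusted p = 0.0649). DKC1 was higher in YAPKO1 with DMSO, at 89.2 ± 1.00 FPKM, against 70.6 ± 3.03 in sgCON (SD, n = 3 each). Its change of 0.34 ± 0.10 (adjusted p = 0.0305) was lost whichever library was left out, and the change in YAPKO2 was 0.14 ± 0.10 (adjusted p = 0.313). The count of 2 in YAPKO1 was 1 without any 1 library of sgCON with DMSO or without library 2 or 3 of YAPKO1 with DMSO, 1 with the groups fitted alone or with the replicate number as a block, and 7 after the GC correction.

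The members lower in YAPKO2 with DMSO were NOP58, LTV1, WDR43, HEATR1, POLR3G, POLR1C, WDR12, EBNA1BP2, DDX10 and PNO1. NOP58 had 64.7, 31.1 and 37.5 FPKM in YAPKO2 and 113, 77.1 and 32.2 in YAPKO1, against 113, 106 and 101 in sgCON. LTV1, a factor of small subunit export, had 16.5, 11.2 and 13.1 FPKM in YAPKO2 and 28.6, 23.8 and 11.5 in YAPKO1, against 30.4, 30.5 and 28.2 in sgCON. WDR43, a subunit of the complex that links polymerase I to processing, had 109, 88.4 and 100.3 FPKM in YAPKO2 and 162, 144 and 105 in YAPKO1, against 203, 189 and 186 in sgCON. YAPKO2 lay below sgCON without overlap for all 3 genes, but NOP58 varied widely within both knockout lines. The log2 changes in YAPKO2 were -1.32 ± 0.45 (adjusted p = 0.0362), -1.11 ± 0.38 (adjusted p = 0.0386) and -0.96 ± 0.18 (adjusted p = 0.000757). The calls of NOP58 and LTV1 were lost in 5 of the 6 fits that left out 1 library, all but that without library 1 of YAPKO2 with DMSO, and that of WDR43 was kept in all. HEATR1, with 44.2, 42.3 and 41.6 FPKM in YAPKO2, against 73.04, 70.2 and 75.5 in sgCON, changed by -0.76 ± 0.12 (adjusted p = 0.000134), and EBNA1BP2 by -0.48 ± 0.07 (adjusted p = 7.83e-05); both calls were kept in all 6.

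Under trametinib more members were called. YAPKO2 with trametinib had 1 member higher and 22 lower than sgCON with trametinib (54.8% called, 52.4% lower), beside 36.3% of all genes called, 17.7% higher and 18.6% lower, with a median log2 change of -0.36. YAPKO1 with trametinib had 1 higher and 7 lower (19% called), beside 15% of all genes called, 7.81% higher and 7.18% lower, with a median of -0.08. The member higher in both lines was NPM3, with 121, 136 and 75.7 FPKM in YAPKO2 and 95.4, 84.8 and 97.97 in YAPKO1, against 58.9, 63.8 and 59.7 in sgCON, all with trametinib. No knockout library fell within the sgCON range. The changes were 0.82 ± 0.18 in YAPKO2 (adjusted p = 0.00162), kept in every fit that left out 1 library, and 0.60 ± 0.18 in YAPKO1 (adjusted p = 0.028), lost in all but that without library 2 of YAPKO1 with trametinib. The 2 comparisons share the sgCON libraries.

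The largest falls in YAPKO2 under trametinib were those of NOP58, WDR43 and LTV1. NOP58 had 33.7, 15.96 and 69.9 FPKM in YAPKO2 and 43.1, 86.1 and 51.1 in YAPKO1, against 107, 100.4 and 97.6 in sgCON. WDR43 had 65.1, 49.3 and 88.03 FPKM in YAPKO2 and 89.6, 109 and 79.4 in YAPKO1, against 159.9, 159 and 140.4 in sgCON. LTV1 had 10.7, 5.16 and 22.5 FPKM in YAPKO2 and 12.5, 22.8 and 12.3 in YAPKO1, against 22.7, 26.2 and 24.4 in sgCON. All YAPKO2 libraries were lower than those of sgCON, and library 2 of YAPKO2 was the lowest for each of these genes. The log2 changes were -1.58 ± 0.45 (adjusted p = 0.0107), -1.21 ± 0.18 (adjusted p = 5.38e-05) and -1.14 ± 0.38 (adjusted p = 0.0274); the adjusted p of NOP58 was 0.0753 and that of LTV1 0.184 without library 2 of YAPKO2, and LTV1 lost its call in 5 of 6 such fits, all but that without library 3 of YAPKO2. NCL, DKC1 and HEATR1 fell by 0.90, 0.50 and 1.09 on the log2 scale in YAPKO2, and these calls were kept in all 6 fits. With the groups fitted alone 9 members were called, all lower.

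In YAPKO1 under trametinib the largest called falls were those of NOP56 (-0.84 ± 0.09, adjusted p = 8.66e-06), POLR3G (-0.82 ± 0.19, adjusted p = 0.00694) and WDR43 (-0.73 ± 0.18, adjusted p = 0.01), against sgCON with trametinib. NOP56 libraries of YAPKO1 with trametinib lay between 104 and 132 FPKM, against 197 to 221 in sgCON with trametinib. LYAR, HEATR1, TSR1 and EBNA1BP2 also fell. The count of 8 in YAPKO1 was 5, 5 and 4 without library 1, 2 or 3 of sgCON with trametinib, 2 without library 3 of YAPKO1 with trametinib, and 17 without the 2 libraries of high GC trend.

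The knockout changes of the members followed the GC content of their transcripts, and this was not particular to the module. Over the tested protein-coding genes, the GC trend with DMSO was 0.08 to 0.63 in YAPKO2, -0.42 to 0.69 in YAPKO1 and -0.49 to -0.38 in sgCON. For YAPKO2 against sgCON in DMSO, the 13 members with a transcript GC content below 45% had a median log2 change of -0.52, and the 14 members above 55% one of 0.25. NOP58, LTV1, WDR43 and HEATR1 have 41.5% to 42.1% GC, while NOP2, NPM3 and MYBBP1A have 55.2% to 60.9%. Spearman's rho between GC content and change was 0.76 in YAPKO2 and 0.64 in YAPKO1 with DMSO, and 0.81 and 0.67 with trametinib. It was 0.63, 0.66 and 0.62 for the trametinib changes of YAPKO2, YAPKO1 and sgCON, and 0.06 for sgCON against parental cells. These are descriptions across 42 genes that share libraries and are not independent. The members themselves were of ordinary composition, with a median of 49.2% GC, against 49.0% for the tested protein-coding genes. How far the GC dependence belongs to the libraries or to the lines was not tested.

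After a spline correction for GC content in each library, rho was 0.36 for YAPKO2 against sgCON in DMSO. The corrected fit then called 4 members higher and 12 lower, of which 3 and 6 were called before the correction as well. NPM3, NOP2, MYBBP1A, NOP58, LTV1, WDR43, HEATR1, EBNA1BP2 and POLR1C kept their calls. POLR3G, WDR12, DDX10 and PNO1 lost them, with corrected log2 changes of -0.18, -0.08, -0.11 and -0.06. With trametinib, 18 of the 22 members lower in YAPKO2 than in sgCON kept their calls among 25, and 5 of 7 in YAPKO1 among 9. The medians of the trametinib changes after the correction were -0.37 in YAPKO2, -0.21 in YAPKO1 and -0.15 in sgCON, close to the uncorrected ones, and 19 of the 20 falls of YAPKO2 were kept among 30.

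**Figure D4:**
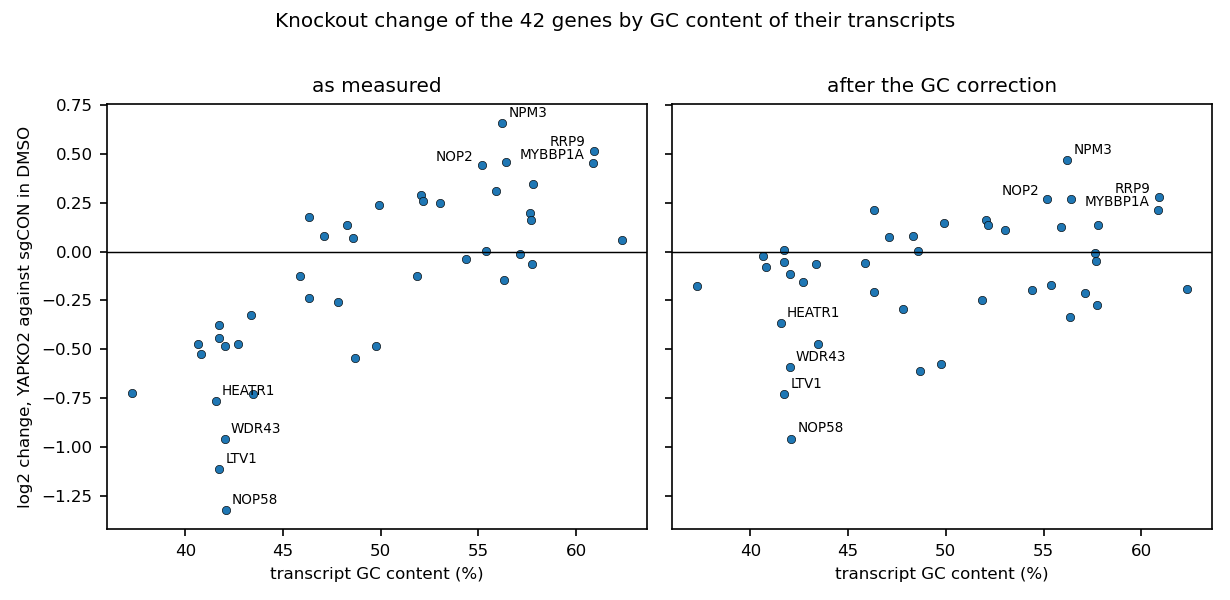
Log2 change of the 42 genes in YAPKO2 against sgCON, both with DMSO (y axis), by the GC content of their transcripts in percent (x axis), as measured (left) and after the GC correction (right). Spearman's rho is 0.76 before and 0.36 after the correction, and NOP58 is the lowest point in both panels.

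The control line also differed from the parental line. In sgCON with DMSO, 8 members were higher and 1 lower than in parental NLF (21.4%), beside 15.9% of all genes called, 7.99% higher and 7.87% lower, and the median log2 change was 0.22. POLR3G had 13.1, 12.02 and 11.3 FPKM in sgCON, against 8.67, 6.58 and 7.30 in parental cells. DDX10, a helicase of the small subunit precursor, had 19.4, 19.6 and 20.5 FPKM in sgCON, against 14.1, 12.6 and 13.2 in parental cells. FBL had 238, 262 and 282 FPKM in sgCON, against 181, 162 and 189 in parental cells. The sgCON libraries were above the parental ones without overlap for all 3 genes, with changes of 0.66 ± 0.19 (adjusted p = 0.0222), 0.56 ± 0.16 (adjusted p = 0.0249) and 0.55 ± 0.18 (adjusted p = 0.0487). WDR74, NOP16, GAR1, NHP2 and EBNA1BP2 rose by 0.26 to 0.52. ODC1 was the exception, with 255, 268 and 258 FPKM in sgCON, against 365, 341 and 319 in parental cells, a change of -0.39 ± 0.12 (adjusted p = 0.0379) and no overlap. NOP16 alone kept its call whichever library was left out: the count of 9 was 4 without library 1 of the parental group and 2 without any other of the 6 libraries, while it was 20 after the GC correction, 20 with the groups fitted alone and 14 without the 2 libraries of high GC trend, which belong to neither group. The summed fibroblast markers, 457 to 537 FPKM in sgCON with DMSO against 885 to 951 in parental cells, moved between the same groups. The parental samples carry the same treatment text as the others, and their columns are headed only with DMSO and a number, so their culture time is uncertain.

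MYCN RNA moved with the drug and with the line. It had 48.4, 54.3 and 40.3 FPKM with trametinib and 117, 128 and 131 with DMSO in YAPKO2. In YAPKO1, MYCN had 81.98, 72.02 and 87.3 FPKM with trametinib and 179, 197 and 244 with DMSO, and in sgCON 54.97, 49.8 and 51.3 with trametinib and 98.9, 98.1 and 92.3 with DMSO, against 29.1, 35.4 and 31.4 in parental cells. Trametinib libraries were below DMSO libraries in every line without overlap, YAPKO1 with DMSO was the highest group and parental cells the lowest. With trametinib MYCN fell by 1.39 on the log2 scale in YAPKO2 (adjusted p = 5.61e-07), by 1.35 in YAPKO1 (adjusted p = 1.84e-06) and by 0.88 in sgCON (adjusted p = 0.000213). In DMSO it was higher than in sgCON by 0.38 ± 0.12 in YAPKO2 (adjusted p = 0.0309) and by 1.09 ± 0.12 in YAPKO1 (adjusted p = 1.04e-05), and in sgCON it was higher than in parental cells by 1.58 ± 0.12 (adjusted p = 1.83e-07). MYC was at or below 0.5 FPKM in every library and was not tested. The median deviation of the 42 members per library lay between -0.30 and -0.22 in YAPKO2 with trametinib and between 0.02 and 0.19 in YAPKO2 with DMSO. In YAPKO1 it lay between -0.12 and 0.00 with trametinib and between 0.10 and 0.27 with DMSO, and in sgCON between 0.04 and 0.07 with trametinib and between 0.13 and 0.17 with DMSO, against -0.03 to 0.03 in parental cells. The order of the groups differs between both measures. Parental cells have the lowest MYCN, while their members lie above those of YAPKO2 with trametinib. YAPKO1 with DMSO has the highest MYCN and also the highest group mean of the members' deviation (0.17). Its libraries overlap those of sgCON and YAPKO2 with DMSO in the members.

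**Figure D5:**
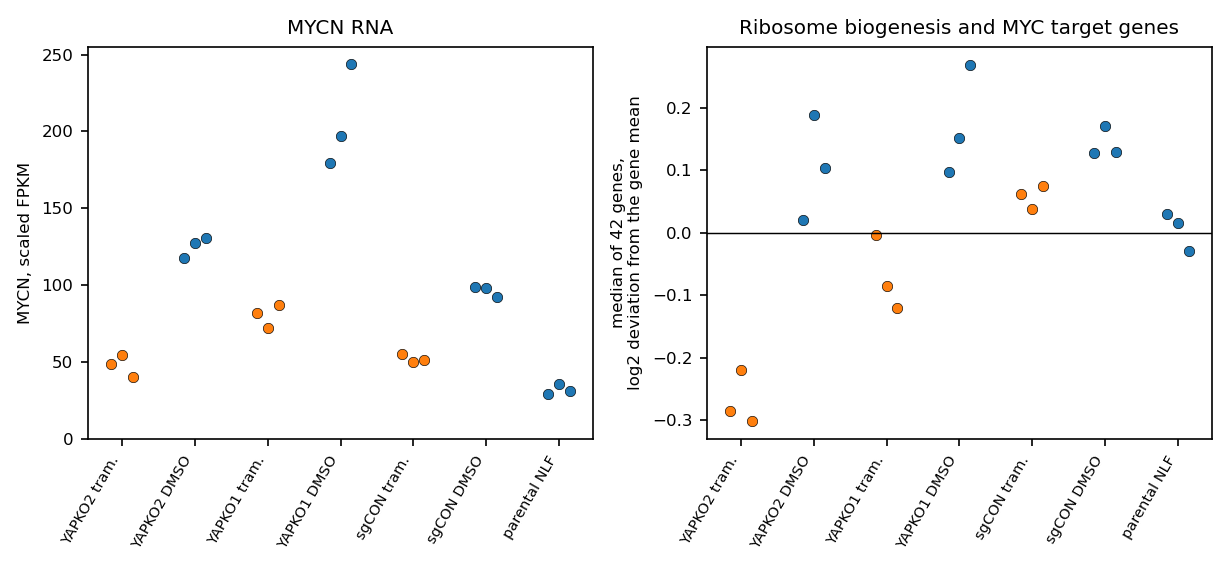
Scaled FPKM of MYCN (left) and the median over the 42 genes of log2(FPKM + 0.5) minus the mean of each gene (right), 1 point per library, by line and treatment. Both are lower with trametinib (orange) than with DMSO (blue) in each line, and MYCN is highest in YAPKO1 with DMSO, at 179 to 244 FPKM.

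Related gene lists gave the surroundings of these changes. Of 91 other ribosome biogenesis factors, 2 rose and 17 fell with trametinib in YAPKO2, 0 rose and 3 fell in YAPKO1, and 0 rose and 2 fell in sgCON, with median log2 changes of -0.26, -0.22 and -0.13. These are 20.9%, 3.30% and 2.20% called, beside 20.1%, 7.85% and 5.22% of all genes, so near the share of all genes in YAPKO2 and below it in YAPKO1 and sgCON. The largest called falls in YAPKO2 were those of CD3EAP, a polymerase I subunit (-1.11 ± 0.19), UTP15 (-0.77 ± 0.25) and SHQ1 (-0.74 ± 0.19), and in both other lines the largest called fall was that of DIMT1, a methyltransferase of the small subunit RNA (-0.55 ± 0.12 in YAPKO1 and -0.50 ± 0.12 in sgCON). Of 18 genes of nucleotide and polyamine synthesis, 11 fell in YAPKO2 (61.1%), 5 in YAPKO1 (27.8%) and 1 in sgCON (5.56%), and 0 rose. The largest called falls in YAPKO2 were those of PPAT, the first enzyme of purine synthesis (-1.29 ± 0.28), PRPS2 (-1.09 ± 0.16) and AMD1, a decarboxylase that serves polyamine synthesis beside ODC1 (-0.88 ± 0.24). GMPS fell in YAPKO1 (-0.55 ± 0.09) and was the gene called in sgCON (-0.41 ± 0.09).

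Proliferation genes were also lower with trametinib in YAPKO2. All 17 fell with trametinib in YAPKO2, with a median log2 change of -0.95, 4 fell and 0 rose in YAPKO1 (median -0.34), and 1, TYMS, rose and 0 fell in sgCON (median 0.02). Their response in YAPKO2 was lower than in sgCON for 14 of 17, beside 2 of the 42 members. The largest called changes of this list in YAPKO2 were those of TOP2A, CCNA2 and CDK1 (-1.24 ± 0.42, -1.13 ± 0.13 and -1.11 ± 0.35). The median of the 17 genes there was -0.95, beside -0.36 for the median member. The share of these genes in the changes of the module was not tested. Of 10 genes of the MYC family and its partners, 2 rose and 3 fell with trametinib in YAPKO2, with a median log2 change of -0.23. Among all genes, 8.59% were higher and 11.5% lower there. MXD4, MXD1, MXD3 and MXI1, which all compete with MYC for MAX, did not move together with trametinib in YAPKO2. MXD4 and MXD1 rose by 0.95 ± 0.18 and 0.75 ± 0.20, while MXD3 and MXI1 fell, as did MYCN. MYCN and MXI1 were also the 2 that fell in YAPKO1 and in sgCON, where 0 rose, MXI1 by -0.51 in YAPKO2, -0.63 in YAPKO1 and -0.54 in sgCON on the log2 scale. MAX was higher in YAPKO1 than in sgCON, by 0.77 ± 0.14 with trametinib and 0.55 ± 0.14 with DMSO.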

How the data were processed

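Total RNA of 21 NLF samples was sequenced after ribosomal RNA depletion, with a stranded kit, per the labels' protocols. The submitters' processing notes name STAR 2.4.2, RSEM 1.3.0 and hg19; the annotation, the number of reads and the use of strand in counting are not given in the sources used here. The authors deposited FPKM for 57820 genes in 2 tables, which differ by 1 factor per library (0.927 to 1.07). FPKM are relative, so a change of all RNA in a cell cannot be seen, and depth is unknown, which leaves no counting intervals. The labels give the DMSO as 0.01%, and the series text as 0.1%.

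The calibrated FPKM were scaled by median ratios (factors 0.930 to 1.11), filtered at an FPKM of 1 in at least 3 libraries and tested as log2(FPKM + 0.5) with limma 3.58.1 in R 4.3.3, with group means over all 21 libraries. P-values were adjusted (Benjamini-Hochberg) over 16092 genes, and 11 comparisons were made. The fit was tested on simulated data. GC content came from GENCODE 29, and figures and counts from Python 3.11.15. Alternatives were other pseudocounts, scalings and filters, fits on the compared groups alone, a replicate block, a GC spline with 5 degrees of freedom, and fits without single libraries. Sample values are given for 10 core genes and for up to 3 called genes in each direction per comparison, with some others chosen after their values were seen; context genes are the 3 largest called changes of each list. The members and lists were chosen with earlier results of these data known.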

Additional observations from a re-analysis of the deposited data

Results flagged for a closer look

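The trametinib response of NOP56 and of DKC1 differed between YAPKO2 and sgCON by the test of the difference itself. For NOP56 the difference of the log2 changes was -0.66, between -0.64 in YAPKO2 and 0.02 in sgCON. For DKC1 it was -0.64, between -0.68 in YAPKO2 and -0.04 in sgCON. Both genes encode core proteins of small nucleolar RNPs, but FBL, NOP58, NHP2, NOP10 and GAR1 of the same particles did not pass this test. The 2 genes are 4.76% of the 42 members, beside 4.83% of all genes called, so near the share of all genes.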

How the results depend on the processing

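Counts of called members depended on the setting more than their direction did, and the cause was not tested. Over the alternatives and comparisons, the count of all genes called also moved by over 1.5 times in 74 cases and did not in 131. The counts of members below stand without the share of all genes under the same setting. Counts with trametinib are given for YAPKO2, YAPKO1 and sgCON in this order, where each moved by over 1.5 times. With only the groups compared in the fit they were 5, 1 and 12. The counts against sgCON were then 25 for YAPKO2 and 1 for YAPKO1 with DMSO and 9 for YAPKO2 with trametinib, and the count for sgCON against parental cells was 20. The uncalibrated table as deposited gave 13 for trametinib in YAPKO2. The GC correction gave 15 for trametinib in YAPKO1, 7 in sgCON, 10 for the response of YAPKO2 minus sgCON, 7 for YAPKO1 against sgCON with DMSO and 20 for sgCON against parental cells. The GC correction with the replicate block gave 12, 6, 8, 7 and 17 for the same comparisons. Without the 2 libraries of high GC trend the counts were 15 for trametinib in YAPKO1, 5 in sgCON, 4 for the response of YAPKO2 minus sgCON, 1 for that of YAPKO2 minus YAPKO1, 24 for YAPKO2 with DMSO and 17 for YAPKO1 with trametinib against sgCON, and 14 for sgCON against parental cells.

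With the replicate number as a block, YAPKO1 against sgCON with DMSO had 1 call, and no other count moved by over 1.5 times (18, 5 and 2 for trametinib). The labels link same-numbered libraries only by that number. Of 63 correlations of their deviations, 4 exceeded 0.1 (range -0.55 to 0.36), and in 0 of 21 pairs of groups did all 3. Such correlations cannot show whether same-numbered libraries were handled together.

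Leaving out each library in turn gave 13 to 21 calls for trametinib in YAPKO2, 4 to 11 in YAPKO1 and 2 in sgCON in every such fit. The responses gave 2 to 6 for YAPKO2 minus sgCON, 0 for YAPKO1 minus sgCON and 0 to 1 for YAPKO2 minus YAPKO1. Against sgCON there were 6 to 10 for YAPKO2 and 1 to 3 for YAPKO1 with DMSO, and 18 to 27 for YAPKO2 and 2 to 8 for YAPKO1 with trametinib; sgCON against parental cells had 2 to 4. The median member change with trametinib stayed below 0 under all alternatives: -0.42 to -0.27 in YAPKO2, -0.25 to -0.14 in YAPKO1 and -0.15 to -0.05 in sgCON. No called member changed direction under the alternatives run.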
